A study of Mus musculus with 36 samples.

Results

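The 9 genes followed here handle the monosaccharides of milk and diet in mouse liver, namely 3 of galactose use (Galk1, Galt, Galm), 2 of fructose and sorbitol use (Khk, Sord), 3 hexose transporters (Slc2a1, Slc2a2, Slc2a8) and the glucose-6-phosphate transporter of the endoplasmic reticulum (Slc37a4). They were chosen by symbol for their roles, and all 9 were found among the 21889 symbols with a value and among the 11149 genes that could be tested. Liver RNA came from C57BL/6 mice by the labels, male C57BL/6J mice by the study's methods, 3 at each of 12 ages: Day -2 (before birth), Day 0 (after birth, before suckling), Days 1, 3, 5, 10, 15 and 20 (suckling) and Days 25, 30, 45 and 60 (weaned, on chow). By the paper, solid food gradually takes the place of milk as weaning nears, so the last suckling ages may be on a mixed diet. Intake was not reported. No treatment or altered gene was involved, whole livers were used, and the 3 mice of an age came from several litters, so the spread reported here is between animals. Levels are FPKM, sequenced fragments divided by transcript length and by library size. Between genes they can be set side by side only roughly, since levels also varied with the GC content of transcripts. Tests were made with limma on log2(FPKM + 1), with p-values adjusted over all tested genes, and a gene was called at an adjusted p under 0.05.

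Milk sugar is lactose, which gut lactase splits into glucose and galactose, and the liver takes up most of the galactose and converts it to glucose 1-phosphate by the Leloir pathway. Fructose is nearly absent from milk and arrives with solid food or is made from sorbitol; ketohexokinase traps it in the liver as fructose 1-phosphate. Hexoses cross the hepatocyte membrane through facilitative transporters of the Slc2a (GLUT) family, and glucose 6-phosphate must enter the endoplasmic reticulum before glucose can be released to the blood.

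Against Day 60, 8 of the 9 genes changed in at least one age, where 90.7% of all tested genes did so, a share close to theirs. Galt was the exception, with a smallest adjusted p of 0.0911 over the 11 comparisons. Of the 9 genes, 8 were called at Day -2, where 75.1% of all tested genes were, and none at Day 25, Day 30 or Day 45, where 7.42%, 3.56% and 0.233% were. By limma's unadjusted p under 0.05, 3 of the 9 passed at Day 25 (Galk1, Galm and Slc37a4), 1 at Day 30 (Galm) and 0 at Day 45, where 19.4%, 18.3% and 7.22% of all tested genes did. The age of the highest level and the direction of the changes differed from gene to gene (plot of levels by age).

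**Figure D1:**
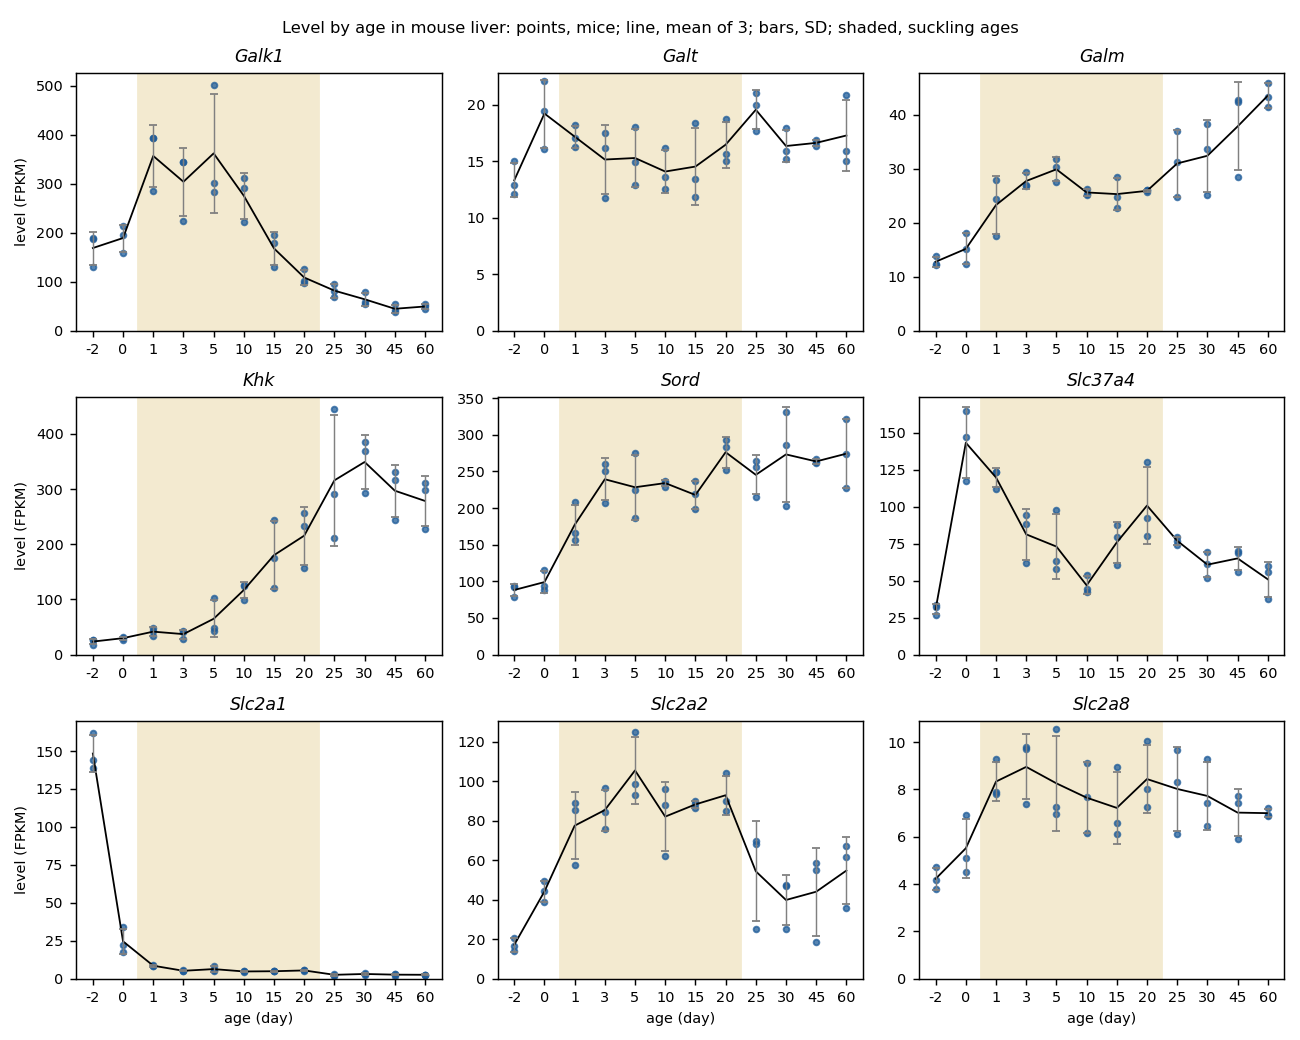
Level in FPKM (vertical axis) of each of the 9 genes by age in days (horizontal axis), 1 point per mouse, with the mean of 3 mice (line) and its SD (bars); suckling ages are shaded. Galk1 was highest at Day 5 with a mean of 362 FPKM and Khk at Day 30 with 349, Slc2a1 dropped from 148 to 24.5 between Day -2 and Day 0, and Galt stayed between 13.3 and 19.5.

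Galactokinase (Galk1) phosphorylates galactose, the entry step of the Leloir pathway. Its level was 129.9, 189 and 187 FPKM in the mice of Day -2 and 196, 159 and 213 at Day 0, and rose to 284, 393 and 393 at Day 1. All 3 mice of Day 1 lay above every mouse of both earlier ages. The rise over the first day of suckling was 0.91 on the log2 scale (SE 0.22, adjusted p = 0.00324). At Day 5 the mice had 300.5, 502 and 283 FPKM, the highest mean of any age (362 ± 122, SD, n = 3). Of these, 300.5 and 283 lay below the Day 1 mice at 393, and under upper quartile scaling the highest age was Day 1. At Day 20 the mice had 102, 98.1 and 126. At Day 60 they had 45.2, 49.7 and 53.7 FPKM, so that the highest age mean was 8.07 times the lowest, that of Day 45 (44.8 ± 8.66, n = 3).

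The mean of Galk1 was 275 FPKM at Day 10, 168 at Day 15 and 109 at Day 20. Between Day 10 and Day 15 it fell by 0.72 on the log2 scale (adjusted p = 0.0329), where 10.5% of all tested genes were called lower, a call that 5 of the alternative settings did not keep, among them the loss of Day 10 replicate 2, Day 10 replicate 3 or Day 15 replicate 2. Between Day 20 and Day 25, across weaning, the log2 difference was -0.41 (95% interval -0.87 to 0.05, adjusted p = 0.336), and with each library's trend in GC and length removed, a setting chosen after seeing the data, it was -0.45 and called (adjusted p = 0.0151). In order of level, 7 of the 11 pairs of neighbouring ages overlapped between mice, and the separate pairs were Day 60 below Day 30, Day 25 below Day 20, Day 20 below Day 15 and Day 0 below Day 10.

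The remaining galactose genes did not follow Galk1. Galactose-1-phosphate uridylyltransferase (Galt), which exchanges the phosphorylated galactose for glucose on a uridine carrier, moved within a range of 1.47-fold, from 13.3 ± 1.49 FPKM at Day -2 to 19.5 ± 1.72 at Day 25 (n = 3 each). No neighbouring pair of ages in its order of level was separate. Its difference over birth was called (0.49, SE 0.16, adjusted p = 0.0115), but not without Day -2 replicate 1 (0.43, adjusted p = 0.0539) or without Day 0 replicate 3 (0.39, adjusted p = 0.0692). Galactose mutarotase (Galm), which interconverts the ring forms of galactose so that the kinase can use it, climbed from 12.8 ± 0.927 FPKM at Day -2 to 43.5 ± 2.27 at Day 60, a 3.41-fold range with its highest value in the adult. Galm rose by 0.58 on the log2 scale between Day 0 and Day 1 (SE 0.17, adjusted p = 0.0113), yet not without Day 0 replicate 3 or Day 1 replicate 2 (both 0.44, adjusted p = 0.0918 and 0.0786) and not with the GC and length trend removed (0.32, adjusted p = 0.0546). At Day 5 the mean level of Galk1 (362 FPKM) was far above those of Galm (29.9) and Galt (15.3), and at Day 60 the 3 means were 49.5, 43.5 and 17.3.

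Ketohexokinase (Khk) carries out the committed step of fructose use. The mice had 17.7, 25.9 and 27.4 FPKM at Day -2, 33.4, 42.8 and 48.9 at Day 1, and 99.8, 125 and 126.5 at Day 10. At Day 20 they had 157, 233 and 257 FPKM, at Day 30 385, 369 and 293, and at Day 60 227, 298 and 311. All mice from Day 10 on lay above all mice of Day -2 to Day 3, and the range of means was 14.8-fold, with the maximum at Day 30 (349 ± 49.1, n = 3). Single steps were small against the spread: Khk was called only between Day 5 and Day 10, where it rose by 0.95 on the log2 scale (SE 0.29, adjusted p = 0.0113) beside 1.88% of all tested genes, and this call was lost without Day 5 replicate 1 or Day 5 replicate 3. Between Day 20 and Day 25 the difference was 0.51 (95% interval -0.08 to 1.10, adjusted p = 0.351), and without Day 25 replicate 2 it was 0.23. With the GC and length trend of each library removed, the step from Day 10 to Day 15 was also called (0.83, adjusted p = 0.0133).

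The order of Galk1 and Khk was exchanged between Day 10 and Day 20, before weaning but at ages when pups may already take some solid food. The ratio of Khk to Galk1 within a mouse was 0.136 to 0.146 at Day -2 and 0.109 to 0.124 at Day 1. It lay between 0.400 and 0.448 at Day 10 and between 0.676 and 1.35 at Day 15, where 1 mouse still had more Galk1 than Khk. At Day 20 it was 1.54 to 2.38, and at Day 45 6.08 to 7.49, the highest of any age. The ranges of Day 5, Day 10, Day 15, Day 20 and Day 25 did not overlap one another.

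**Figure D2:**
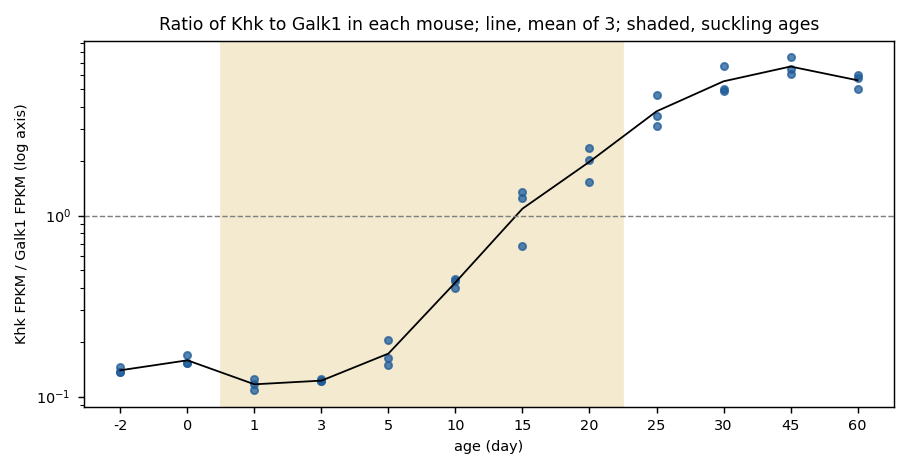
Ratio of Khk to Galk1 FPKM (vertical axis, log scale) in each mouse (points) by age in days (horizontal axis), with the mean of 3 mice (line); the dashed line marks equal levels and suckling ages are shaded. The mean ratio went from 0.117 at Day 1 through 1.09 at Day 15 to 6.67 at Day 45.

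Since the 2 kinases took opposite courses, the 250 bases before their RefSeq start sites (GRCm38.p6) are shown, 5′ to 3′, with motif matches in capitals. Both strands were searched. The E box core, bound by basic helix-loop-helix factors, was spelled CACGTG. The GC box was spelled GGGCGG. The CCAAT box was searched by these letters. The GATA factor motif was spelled AGATAA, and GTTAAT stood for part of the HNF1 motif.
Galk1, chr11:116012720-116012969, minus strand: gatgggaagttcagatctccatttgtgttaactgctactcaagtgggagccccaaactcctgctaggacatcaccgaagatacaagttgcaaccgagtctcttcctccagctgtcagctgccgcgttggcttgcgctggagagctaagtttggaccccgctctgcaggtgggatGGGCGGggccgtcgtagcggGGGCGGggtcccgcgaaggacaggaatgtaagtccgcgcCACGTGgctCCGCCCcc
Khk, chr5:30921309-30921558, plus strand: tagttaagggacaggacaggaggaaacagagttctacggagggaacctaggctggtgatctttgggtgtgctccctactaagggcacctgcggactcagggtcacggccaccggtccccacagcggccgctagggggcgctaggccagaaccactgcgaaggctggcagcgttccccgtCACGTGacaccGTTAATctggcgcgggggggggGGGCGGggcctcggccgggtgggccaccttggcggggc
Both windows held 1 E box core, 17 bases before the start in Galk1 and 71 bases before it in Khk, as did 6.02% of all 32851 windows of this length in the table. GC boxes numbered 3 in Galk1 and 1 in Khk, and 32.7% of all windows held one. GTTAAT was found in Khk only among the windows of the 9 genes, and in 6.43% of all windows. The first window of Galt also held an E box core, 42 bases before the start, while those of Sord, Slc2a1, Slc2a2, Slc2a8 and Slc37a4 held none. Windows were found for 8 of the 9 genes. A match is a description of the letters and not evidence of binding.

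Sorbitol dehydrogenase (Sord) oxidises sorbitol to fructose. Its level was 92.9, 116 and 88.1 FPKM at Day 0 and 166, 208 and 156.5 at Day 1, without overlap, and it rose by 0.83 on the log2 scale (SE 0.16, adjusted p = 0.000339). From Day 3 to Day 60 its means stayed between 218 FPKM at Day 15 and 276 at Day 20, and no later step was called. The difference of 0.44 between Day 1 and Day 3 was not called (adjusted p = 0.0841), but it was with the replicate block (0.44, adjusted p = 0.0306), without the 3 libraries of weaned mice in which long transcripts were lowest, and without Day 1 replicate 2 or Day 30 replicate 1. Against Day 60 it was called at Day -2, Day 0 and Day 1 and not at Day 3 (-0.19, adjusted p = 0.316), when Khk was at 37.2 ± 8.06 FPKM (Day 3, n = 3), against 278 ± 45.2 at Day 60.

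Of the transporters, Slc2a1 (GLUT1), a glucose carrier of many fetal tissues, fetal erythroid cells among them, had the widest range of the 9 genes. Its level was 162, 139 and 144 FPKM at Day -2, 17.3, 33.8 and 22.4 at Day 0, and 8.38, 7.94 and 9.06 at Day 1. The 3 ages did not overlap. Slc2a1 fell by 2.60 on the log2 scale over birth (SE 0.18, adjusted p = 2.5e-12) and by a further 1.38 over the first day (SE 0.18, adjusted p = 1.39e-06). The means then lay between 4.67 FPKM (Day 10) and 6.23 (Day 5) until Day 20, and between 2.46 and 3.01 from Day 25 on, so that the range was 60.3-fold.

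Slc2a1 was also the only one of the 9 genes called across weaning. The mice had 5.42, 4.95 and 5.68 FPKM at Day 20 and 3.21, 1.62 and 2.55 at Day 25, and every mouse of Day 20 lay above every mouse of Day 25. The fall was 0.90 on the log2 scale (SE 0.18, adjusted p = 0.00116), in a comparison that called 7.19% of all tested genes and 3.26% as lower. The call held without each of the 36 mice in turn (range -1.06 to -0.72).

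Slc2a2 (GLUT2), the low-affinity glucose, galactose and fructose carrier of hepatocytes, took the opposite course around birth. It was at 20.8, 13.9 and 16.7 FPKM at Day -2, at 38.9, 44.1 and 49.3 at Day 0, and at 98.4, 125 and 92.9 at Day 5, its highest age. The 3 ages did not overlap. Slc2a2 rose by 1.33 over birth (SE 0.35, adjusted p = 0.00219), and the difference of 0.78 over the first day was not called (95% interval 0.07 to 1.49, adjusted p = 0.0846). Across weaning the difference was -0.89 and was not called either (adjusted p = 0.13); without Day 25 replicate 2 it was -0.42. Of the summed FPKM of 12 Slc2a symbols, Slc2a1 made up 79.3% ± 0.843 and Slc2a2 9.07% ± 1.05 at Day -2, against 7.82% ± 2.18 and 68.7% ± 2.57 at Day 1 and 3.44% ± 1.07 and 71.6% ± 6.57 at Day 60 (SD, n = 3).

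The windows of the pair that changed places at birth are shown in the same way.
Slc2a1, chr4:119108495-119108744, plus strand: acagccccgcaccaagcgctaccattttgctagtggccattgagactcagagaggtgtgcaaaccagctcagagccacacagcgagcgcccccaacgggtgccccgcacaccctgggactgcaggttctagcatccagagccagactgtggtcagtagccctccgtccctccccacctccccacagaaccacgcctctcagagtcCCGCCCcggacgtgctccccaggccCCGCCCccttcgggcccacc
Slc2a2, chr3:28697653-28697902, plus strand: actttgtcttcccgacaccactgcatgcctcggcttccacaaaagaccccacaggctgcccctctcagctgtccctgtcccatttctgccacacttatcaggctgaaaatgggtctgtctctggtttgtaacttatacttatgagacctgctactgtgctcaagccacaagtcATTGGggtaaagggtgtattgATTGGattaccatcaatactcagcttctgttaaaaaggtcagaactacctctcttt
The Slc2a1 window held 66.4% G and C with 2 GC boxes, and the Slc2a2 window 47.2% with none and with 2 CCAAT boxes, 77 and 56 bases before the start. CCAAT was present in 33.8% of all windows.

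The summed level of erythroid genes went down with Slc2a1 over birth and the first day, but the courses differed later. The fetal mouse liver is a site of blood formation, and the summed FPKM of 7 erythroid markers (Slc4a1, Alas2, Klf1, Epb4.2, Ermap, Hbb-b1 and Hba-a1) was 126983 to 184980 at Day -2, 59982 to 80357 at Day 0, 21442 to 33550 at Day 1 and 649.8 to 714 at Day 60, with 3 of the 7 under 1 FPKM at Day 60. Most of the sum was Hba-a1, with means of 131005 at Day -2 and 527 at Day 60. Alas2 fell less, from 1053 to 68.1. At Day 0 the order of the mice was the same for both: Slc2a1 at 17.3, 22.4 and 33.8 FPKM with sums of 59982, 76623 and 80357. At Day -2 and Day 1 it was not. The mouse with the highest Slc2a1 of Day -2 (162 FPKM) had the lowest sum (126983). The mouse with the lowest Slc2a1 of Day 1 (7.94) had a sum of 32487, and the lowest sum of that age was 21442. From Day 1 to Day 3 Slc2a1 and the sum parted, the sum going from a mean of 29159.8 to 43425 while Slc2a1 fell by 0.63 on the log2 scale (SE 0.18, adjusted p = 0.0211, beside 3.09% of all tested genes called lower). That call was lost when any one of 4 mice was left out. From Day 3 to Day 20 the mean sum went from 43425 to 3912, while Slc2a1 had means of 5.10 and 5.35 FPKM at these ages and no step between them was called. Each of the 7 markers had a higher mean at Day 3 than at Day 1 and a lower one at Day 20 than at Day 3. Across weaning the mean sum was 3912 at Day 20 and 2486 at Day 25. The 3 genes whose 12 age means were most like those of Slc2a1 were the embryonic globins Hbb-y, Hba-x and Hbb-bh1 (Pearson r of 0.971, 0.970 and 0.962 over 12 ages, of 4771 genes compared). Whether erythroid cells carried the Slc2a1 signal was not tested. In whole liver, fewer cells of a type and less RNA per cell cannot be told apart.

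**Figure D3:**
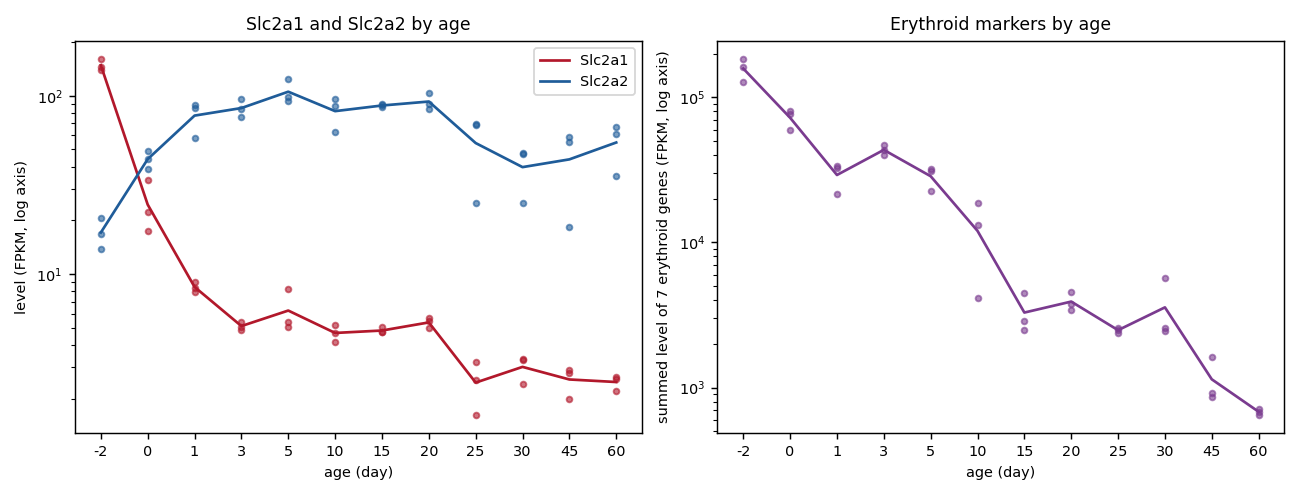
Left, levels of Slc2a1 and Slc2a2 in FPKM (vertical log axis) by age in days; right, summed FPKM of 7 erythroid markers (vertical log axis). Points are mice and lines are means of 3: Slc2a1 was above Slc2a2 at Day -2 only, and the erythroid sum, most of it Hba-a1, dropped from a mean of 157904 at Day -2 to 681 at Day 60.

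Slc2a8 (GLUT8), an intracellular hexose transporter, was the lowest of the transporters before birth and varied little afterwards. Its means went from 4.22 ± 0.466 FPKM at Day -2 to 8.96 ± 1.38 at Day 3 and 7.00 ± 0.176 at Day 60, and in order of level all 11 neighbouring pairs overlapped. It rose by 0.53 between Day 0 and Day 1 (SE 0.18, adjusted p = 0.0258), a call lost without Day 0 replicate 1, Day 0 replicate 2 or Day 1 replicate 2 (0.42 to 0.49) and under upper quartile scaling (0.39, adjusted p = 0.119). The ratio of Slc2a1 to Slc2a8 within a mouse averaged 35.6 at Day -2 and between 0.333 and 0.398 at the ages from Day 25 on.

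Slc37a4 moves glucose 6-phosphate into the endoplasmic reticulum, where glucose-6-phosphatase (G6pc) releases glucose. Its level was 26.9, 33.2 and 31.9 FPKM at Day -2 and 165, 117.5 and 147 at Day 0, before any milk was taken. It rose by 2.18 on the log2 scale (SE 0.20, adjusted p = 1.36e-09), the largest rise of the 9 genes over birth, and Day 0 held its highest mean (143 ± 23.8, n = 3). The level then went down to 44.6, 53.7 and 42.1 FPKM at Day 10 and was 79.9, 92.3 and 130 at Day 20. Both the fall from Day 5 to Day 10 (0.60 on the log2 scale, adjusted p = 0.0231) and the rise from Day 10 to Day 15 (0.68, adjusted p = 0.0275) passed the test, in steps that called 34.4% of all tested genes lower and 1.52% higher, and each was lost when single mice were left out (3 and 4 of the 36, respectively). The fall was also lost under upper quartile scaling (-0.15, adjusted p = 0.769) and with the GC and length trend removed (-0.25, adjusted p = 0.382), in a step where the median of all tested genes was -0.31. G6pc went from 0.0366, 0.0381 and 0.0451 FPKM at Day -2 to 226, 42.4 and 59.8 at Day 0, a log2 difference of 6.34 (SE 0.42, adjusted p = 8.26e-13). Day 0 replicate 1, the mouse with the highest G6pc and Slc37a4 of that age, also had a summed level of 1169 FPKM for 6 skeletal muscle markers, against 4.08 and 4.37 in the other mice of Day 0. Without that mouse Slc37a4 was higher at Day 0 by 2.07. The summed level of 6 hepatocyte markers was 5343 FPKM at Day -2 and 31406 at Day 0, most of it Alb (means of 3272 and 25672). The other markers rose by unlike amounts between these ages. Hnf4a went from 36.9 to 66.2, Ttr from 1703 to 3766 and Serpina1a from 314 to 1720. Cps1 went from 17.8 to 135, and Tat from 0.217 to 46.3 (SD 68.8 at Day 0).

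The step over birth called 3 of the 9 genes as higher (Galt, Slc2a2 and Slc37a4) and Slc2a1 as lower, where 13.1% of all tested genes were called higher and 41.4% lower. The first day of suckling called 4 as higher (Galk1, Galm, Sord and Slc2a8) and Slc2a1 as lower, beside 23.7% and 7.88% of all tested genes. The gene called in both steps was Slc2a1. Across the 11 steps, 15 calls fell on the 9 genes, and 9 of them on these first 2 steps (60%), close to the 53.5% that these steps held of all calls over the tested genes.

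When the 6 suckling ages were averaged and set against the 4 ages after weaning, 4 genes were higher (Galk1 by 2.02, Slc2a2 by 0.96, Slc2a1 by 0.89 and Slc37a4 by 0.33 on the log2 scale) and 4 lower (Khk, -1.82; Galm, -0.43; Sord, -0.21; Galt, -0.17), with Slc2a8 not called (0.11, adjusted p = 0.21). Of all tested genes 68.1% were called higher and 11.7% lower, and the median gene stood 0.39 higher in suckling; after upper quartile scaling of the libraries it stood 0.13 higher. Relative to that median, Galk1 stood at 1.63 (SE 0.10, adjusted p of the difference 1.06e-16), Khk at -2.20 (SE 0.13, 3.58e-13) and Slc37a4 at -0.05. Slc37a4 and Slc2a8 changed sign under upper quartile scaling, to -0.08 (adjusted p = 0.493) and -0.26 (adjusted p = 0.0094). Galt was no longer called when any one of 8 mice was left out (adjusted p up to 0.088). The 4 calls in the lower direction among 9 genes stood beside a background of 11.7%, and the median of the 9 was 0.11 against 0.39 for all genes.

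Against Day -2 and Day 0 together, the suckling ages were higher for 6 of the 9 (Khk by 1.66, Slc2a2 by 1.64, Sord by 1.27, Galm by 0.87, Slc2a8 by 0.64 and Galk1 by 0.42) and lower for Slc2a1 (-3.19, SE 0.10, adjusted p = 6.72e-21). Of all tested genes 27% were called higher and 40.7% lower, with a median of -0.10, and the median of the 9 was 0.64. Galt (-0.05) and Slc37a4 (0.24, adjusted p = 0.0681) were not called, and Galt was at 0.09 under upper quartile scaling. Slc37a4 was called under upper quartile scaling (0.40, adjusted p = 0.00659), TPM scaling (0.34, adjusted p = 0.00504) and with the GC and length trend removed (0.38, adjusted p = 0.00403), and when any one of 5 mice was left out (0.27 to 0.30). Both comparisons share the suckling mice. Khk, Galm and Sord went up in order from the ages before suckling through suckling to the ages after weaning, whereas Galk1 and Slc2a2 were highest in the middle.

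**Figure D4:**
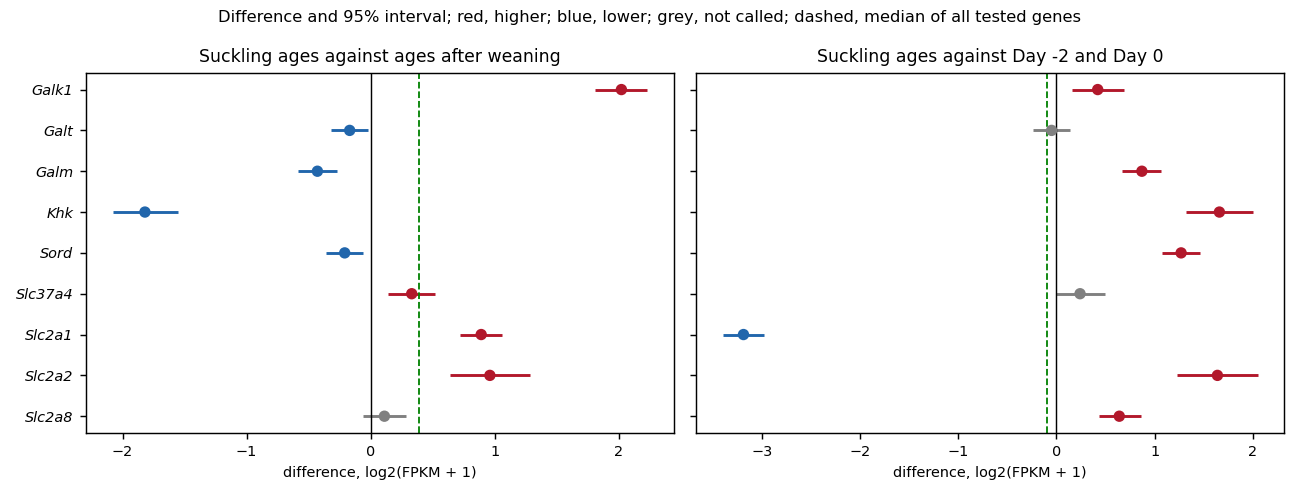
Difference in mean log2(FPKM + 1) (horizontal axis) with its 95% interval for the 9 genes (vertical axis), suckling ages against the ages after weaning (left) and against Day -2 and Day 0 (right); red, called higher; blue, called lower; grey, not called; dashed, median of all tested genes (0.39 and -0.10). Galk1 and Khk lie at opposite ends on the left, and Slc2a1 is the only gene called lower on the right.

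The libraries of an age differed in how levels varied with the base composition of transcripts, and several of these genes moved with that difference; its part in the results was not tested beyond the values that follow. For each mouse, the deviation of all other genes from their age mean was regressed on the GC content of the longest transcript, and the slopes ran from -0.26 to 0.24 log2 units per 10 percentage points of GC. The mouse with the highest slope of its age had the highest Galk1 at 12 of 12 ages, the highest Slc2a8 at 10, and the highest Galt and Khk at 9. Transcripts of these genes hold 61.4% (Galk1 and Slc2a8), 58.0% (Khk) and 56.1% (Galt) GC, and that of Slc2a2, the lowest, 45.6%. The setting with the GC and length trend removed used another fit, of each library's deviations from the mean over all mice. It took out the library's overall shift together with its trends, also where these differed between ages. With it, the SE of the Galk1 difference between suckling and weaned ages went from 0.10 to 0.06, and the difference was 1.56. Khk stood at -2.23 (SE 0.10). Slc2a8 then lay at -0.39 and Slc37a4 at -0.10, below 0 as under upper quartile scaling. The remaining differences all moved down as well, Slc2a1 from 0.89 to 0.45, Slc2a2 from 0.96 to 0.65, Galm from -0.43 to -0.76, Sord from -0.21 to -0.58 and Galt from -0.17 to -0.59. In this comparison the median of all tested genes stood 0.39 higher in suckling, and such a shift is taken out too. How much of each move came from the shift and how much from GC and length was not tested.

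Slc2a2 after weaning rested partly on such libraries. Its lowest values of any weaned mouse, 25.1 FPKM in Day 25 replicate 2, 25.0 in Day 30 replicate 1 and 18.3 in Day 45 replicate 3, came from the library of each age in which long transcripts were lowest (slopes of -0.17, -0.20 and -0.12 log2 units per doubling of length). The same libraries had the highest GC slope of their age (0.18, 0.11 and 0.15), so length and GC cannot be told apart here. The other 2 mice had 68.2 and 69.6 FPKM at Day 25, 46.9 and 47.5 at Day 30, and 58.6 and 55.1 at Day 45. With those 3 libraries left out, Slc2a2 was still higher in suckling, by 0.64 in place of 0.96 (adjusted p = 3.01e-06), and Galt was no longer called (adjusted p = 0.0606). The pancreatic acinar markers, 6 genes, summed to between 0.336 and 16305 FPKM from mouse to mouse, highest in Day 60 replicate 1. Galk1, Khk, Slc2a1 and Slc2a2 in that mouse were at 45.2, 227, 2.64 and 67.2 FPKM, of which only Slc2a1 and Slc2a2 were the highest of their age. The acinar sum also differed over birth, at 1.75 to 3.29 FPKM at Day -2 and 1067, 615 and 6657 at Day 0. Day 0 replicate 3, with 6657, had the highest Galk1, Galt, Khk, Slc2a2 and Slc2a8 of that age and the lowest Galm and Sord. The part of pancreatic acinar cells in the levels was not tested.

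Around the 9 genes, 26 others of the same routes were counted, and 18 could be tested. In suckling against the ages after weaning 16 were higher and 1 lower, beside 68.1% and 11.7% of all tested genes, with a list median of 0.65. Against Day -2 and Day 0, 10 were higher and 5 lower, beside 27% and 40.7% of all tested genes, with a list median of 0.23.

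In the galactose route, UDP-glucose pyrophosphorylase (Ugp2) was higher in suckling than after weaning by 0.43 (SE 0.12, adjusted p = 0.00153) and than before it by 1.15, and Pgm2, a phosphoglucomutase symbol, by 0.28 (adjusted p = 3.53e-05) than after weaning. The symbols Pgm2 and Dak follow the older annotation of the deposited table and may stand for other symbols in current annotation.

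Among fructose and polyol genes, the difference of triokinase (Dak) between suckling and weaned ages was not called (0.15, adjusted p = 0.29). This average hid an early peak. Mean Dak was lowest before birth (38.7 FPKM, Day -2) and highest on Day 3 (301 ± 60.6), followed by Day 5 (298 ± 115). The last suckling age (95.1, Day 20) and the adult (111, Day 60) lay below that peak. Dak changed against Day 60 in at least one age (smallest adjusted p 5.16e-05 over the 11 comparisons). Glycerate kinase (Glyctk) was higher in suckling by 0.78 (adjusted p = 4.66e-06). Khk, at the head of this route, was called lower in suckling (-1.82). Akr1b7, an aldose reductase family member, rose from 9.52, 11.7 and 13.6 FPKM at Day -2 to 163, 98.2 and 123 at Day 0, was at 145, 180 and 155 at Day 3 and at 0.224, 0.116 and 0.435 at Day 60. Its difference between suckling and weaned ages was 5.01 (SE 0.13, adjusted p = 9.5e-24).

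Of 12 other listed sugar carriers, 5 could be tested, of which 4 were higher and 1 lower in suckling than after weaning. Slc2a3 and Slc2a4, glucose carriers best known from neurons and from muscle and fat, were higher by 1.45 and 0.75. Their means were 5.39 and 2.61 FPKM at Day 3, but 0.175 and 0.154 at Day 20 and 0.0679 and 0.0843 at Day 60. Levels this low count for little on the log2(FPKM + 1) scale, so these differences are not fold changes. Slc2a5 (GLUT5), the fructose carrier best known from the gut, stayed low, from 0.0828 FPKM at Day 0 to 1.30 at Day 60, and was lower in suckling by 0.52. Slc2a9, a urate carrier related to the hexose carriers, was higher in suckling by 0.59 (adjusted p = 1.1e-05) and had its highest mean at Day 20 (14.8 ± 1.13).

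In the glucose 6-phosphate group, G6pc was higher in suckling than after weaning by 0.60 (adjusted p = 0.00594), the ubiquitous G6pc3 by 0.79 (adjusted p = 4.34e-13) and Gckr by 0.95 (adjusted p = 1.86e-09). Of the 9 genes and the 18 others tested, Khk had the largest difference in favour of the weaned ages (-1.82), followed by Slc2a5 (-0.52). This ranking holds on the log2(FPKM + 1) scale, which shrinks the differences of genes as low as Slc2a5.

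**Figure D5:**
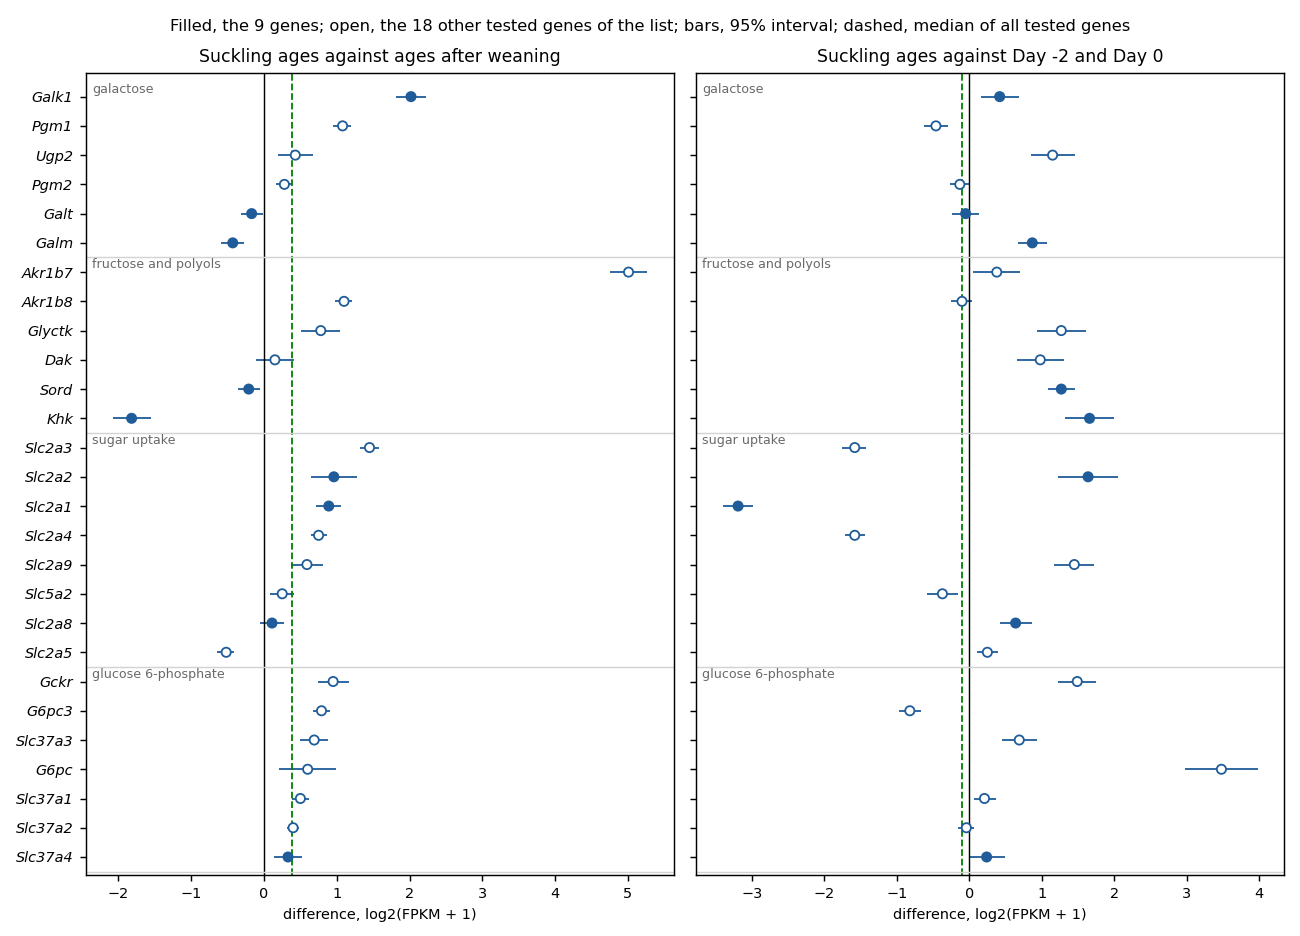
Difference in mean log2(FPKM + 1) with its 95% interval (horizontal axis) for the 9 genes (filled) and the 18 other tested genes of the routes (open), by role (vertical axis), suckling ages against the ages after weaning (left) and against Day -2 and Day 0 (right); dashed, median of all tested genes. Akr1b7 (5.01) and Khk (-1.82) are the extremes on the left, G6pc (3.48) and Slc2a1 (-3.19) on the right.

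By likeness over the 12 age means, Khk stood nearest to Cdhr5, Ces1b and Tdo2 (r of 0.996, 0.988 and 0.987), Galk1 to Rhoc, Mov10 and Ramp2 (0.992, 0.990 and 0.988) and Slc2a2 to Cpt1a, Sirt3 and Ube2e2 (0.955, 0.953 and 0.952). Galm was nearest to Rhou (0.983), Sord to Tymp (0.983), Slc2a8 to Rbp4 (0.950), Galt to Cyp2a4 (0.884) and Slc37a4 to Pnpla2 (0.876). Among the 9 genes themselves, r was 0.92 between Galm and Sord and -0.93 between Sord and Slc2a1, and Galk1 had -0.78 with Khk. These are descriptions over 12 means that share libraries and the growth of the liver.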

How the data were processed

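Liver poly-A RNA of 36 mice was sequenced as paired reads. Per the study's methods and the submitters' processing notes, the authors mapped reads to NCBI37/mm9 with TopHat 1.2.0, estimated abundance with Cufflinks 1.0.3 and deposited FPKM values per gene symbol, without counts. Values were tested on the log2(FPKM + 1) scale with limma 3.58.1 (R 4.3.3), 1 mean per age, mean-variance trend, 24 residual degrees of freedom, for genes whose average reached 1 FPKM at one age or more; adjustment was by Benjamini-Hochberg. For any age against Day 60 it ran over all 11 comparisons together. Depth, estimated from steps among low values, was 71.0 to 115 (in units of 1000000) fragments per library, so that the lowest member mean (2.46 FPKM) rests on about 519 fragments and counting error is near 4.39%. Without strand-specific counts, overlapping transcripts cannot be separated. The members and lists were chosen with earlier results of these data known. Named were the 9 genes, listed route genes reaching 10 FPKM (others counted, Slc2a3, Slc2a4 and Slc2a5 named after their values were seen) and the 3 genes most alike to each; some listed genes are not reported here. Transcript GC and length came from GENCODE M1 (97.7% of tested genes), promoters from RefSeq. Alternatives were pseudocount, filter, scaling, variance model, replicate block, Dunnett's comparison, single mice left out and 2 added after seeing the data. Python 3.11.15 made figures. The fit was checked on simulated data.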

Additional observations from a re-analysis of the deposited data

How the results depend on the processing

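Of 543 counts of called genes recomputed over the alternatives, 538 stayed within 1.5 times the value reported, and of 441 single-gene differences 418 kept direction and call, 8 turned direction, 4 lost the call and 11 gained it. Most of the 543 came from leaving out single mice. For a single step most of those mice were of other ages, so such counts could hardly move. The allowance of 1.5 times also passed small changes, as from 4 to 3 genes higher in suckling than after weaning with the trend removed. The 441 hold single mice left out only as the lowest and highest values of the 2 comparisons of age groups. Single steps that changed without one mouse lie outside them, among them Galt over birth and Galm and Slc2a8 over the first day. Slc2a8 across weaning also turned, from -0.07 to 0.04 without Day 20 replicate 3 and to 0.09 without Day 25 replicate 1. Upper quartile scaling called 6 of the 9 genes as higher over birth in place of 3, and kept the age of the highest level for 5 of 9. That age moved for Galk1 (Day 5 to Day 1), Sord (Day 20 to Day 45), Slc2a2 (Day 5 to Day 20) and Slc2a8 (Day 3 to Day 20). With GC and length trends removed (chosen after seeing the data), 5 were higher over birth and 2 lower across weaning (Slc2a1 and Galk1, -0.45). Leaving out single mice, the count of genes higher at Day 1 than at Day 0 ranged from 2 (without Day 1 replicate 2) to 5. Directions turned for Slc2a8 (-0.26 and -0.39 for suckling against the ages after weaning, upper quartile scaling and trend removed), Slc37a4 (-0.08 and -0.10, likewise), Galt (0.09, 0.03 and 0.09 for suckling against Day -2 and Day 0, with upper quartile scaling, TPM scaling and trend removed) and Galk1 (-0.05 over birth, trend removed); the cause was not tested.

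The replicate numbers name different animals. Deviations of same-numbered mice of different ages had a median correlation of 0.126, against -0.048 for other numbers, and 19 of 36 mice were closest to their own number. With the replicate block, 9 in place of 8 of the 9 genes changed against Day 60, and the counts in the 2 comparisons of age groups were 4 higher and 4 lower, and 6 higher and 1 lower, as reported. No spike-in or count is used here, so a change in total RNA per liver would not show.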
